A study of Mus musculus with 26 samples.

Results

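Transcript levels of 9 genes of the Hippo pathway and its matrix output were followed in mouse J1 embryonic stem cells after knockdown of Mettl14 or Mettl3, whose products form the complex that places N6-methyladenosine on messenger RNA. The genes were Ccn1, Ccn2, Thbs1, Ankrd1, Amotl2, Ajuba, Lats2, Yap1 and Wwtr1. They were chosen by name, with earlier results of these data known, among the 22180 genes that an array probe set pairs with a single symbol. The brightest probe set by mean over the 26 arrays stood for each gene. All 9 lay among the 14787 genes that passed the filter on dim signal. Thbs1 and Ccn1 were singled out by how their signal held or dropped over time and by how the knockdown differences compared between the 2 sets of arrays, so both genes are described without a test throughout.

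The time course comprised 9 groups of 2 arrays, namely cells with Mettl14 knockdown, with Mettl3 knockdown and with a scramble control, each at 0 h, 4 h and 8 h. The repeat set comprised 4 groups of 2 arrays at 0 h, with Mettl14 knockdown and its own scramble control, and Mettl3 knockdown and its own scramble control. All cells were J1 cells kept in serum and leukaemia inhibitory factor on irradiated mouse embryo fibroblasts, and poly(A) RNA was measured on Affymetrix arrays of the Mouse Gene 2.0 ST design. Per the labels, knockdown used lentiviral hairpins with puromycin selection and also 2 rounds of small interfering RNA transfection, with no word on which arrays had which or on what the 4 h and 8 h incubations contained. No group altered Yap1 or Wwtr1, so the dependence of the genes on YAP is background and was not measured. Both repeat scramble controls have a replicate 2 whose description says 4 h while its title says 0 h, and each result that rests on them was also computed without both.

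In the Hippo pathway, a kinase cascade that ends in LATS1 and LATS2 phosphorylates the co-activators YAP (Yap1) and TAZ (Wwtr1) and keeps them out of the nucleus. When the cascade is low, for instance in spread cells on stiff matrix, YAP and TAZ enter the nucleus, bind TEAD factors and raise transcription of target genes. Ccn1, Ccn2 and Ankrd1 are the usual readouts of this activity. Several targets act back on the pathway: LATS2 inhibits YAP and TAZ, AMOTL2 binds and restrains them, and AJUBA, a LIM protein, recruits LATS kinases to junctions and limits them. Ccn1 and Ccn2 encode secreted matricellular proteins that bind integrins, and Thbs1 encodes thrombospondin 1, a matrix glycoprotein that binds CD47 and activates latent TGF-beta. In the early embryo, YAP and TAZ with TEAD4 drive the trophectoderm programme in outer cells.

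TEAD factors recognise a short core, GGAATG or CATTCC on the other strand, and a window of 250 bases before to 50 bases after each gene start was searched for it on both strands. RefSeq promoters of mouse GRCm38.p6 were listed for 7 of the 9 genes, all but Ccn2 and Thbs1. Each of the 7 held a match, against 16.6% of 27025 genes and 14.7% of 32851 promoters of the same length. Ankrd1 and Ajuba held 2 matches each, where 1.36% of promoters held 2 or more. By promoter, 8 of 9 member windows held the core, the other being the second start of Lats2. The first Lats2 start had its match 5 bases after the start. TGACTCA, the AP-1 site, was in none of the 7 genes, against 5.95% of all genes and 5.2% of promoters. TATAAA was in 1 of the 7, Ccn1, 25 bases before its start, against 15.7% of all genes and 13.6% of promoters. A match describes letters only and shows no binding. The 250 bases before the start are shown for 4 genes, from the farthest to the nearest base, because they give examples of a single core (Ccn1 and Amotl2) and of a paired core (Ankrd1 and Ajuba). The capitals mark the TEAD core. The regions are chr3:145649986-145650235 on the minus strand for Ccn1, chr19:36119845-36120094 on the minus strand for Ankrd1, chr9:102717554-102717803 on the plus strand for Amotl2 and chr14:54577662-54577911 on the minus strand for Ajuba, each upstream of the first exon.
Ccn1: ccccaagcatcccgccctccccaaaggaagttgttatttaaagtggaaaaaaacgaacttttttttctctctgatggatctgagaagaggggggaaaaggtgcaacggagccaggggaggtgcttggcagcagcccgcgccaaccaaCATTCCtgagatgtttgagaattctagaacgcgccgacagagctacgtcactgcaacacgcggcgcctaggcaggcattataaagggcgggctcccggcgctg
Ankrd1: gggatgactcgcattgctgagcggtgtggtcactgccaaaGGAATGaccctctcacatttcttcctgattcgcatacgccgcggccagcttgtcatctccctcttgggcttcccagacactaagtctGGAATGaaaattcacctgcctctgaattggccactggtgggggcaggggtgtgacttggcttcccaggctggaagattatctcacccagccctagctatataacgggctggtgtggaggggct
Amotl2: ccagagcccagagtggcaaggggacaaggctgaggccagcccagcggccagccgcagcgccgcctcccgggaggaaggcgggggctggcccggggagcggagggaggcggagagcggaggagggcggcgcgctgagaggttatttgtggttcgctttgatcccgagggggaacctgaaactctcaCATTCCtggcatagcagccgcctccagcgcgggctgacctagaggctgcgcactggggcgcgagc
Ajuba: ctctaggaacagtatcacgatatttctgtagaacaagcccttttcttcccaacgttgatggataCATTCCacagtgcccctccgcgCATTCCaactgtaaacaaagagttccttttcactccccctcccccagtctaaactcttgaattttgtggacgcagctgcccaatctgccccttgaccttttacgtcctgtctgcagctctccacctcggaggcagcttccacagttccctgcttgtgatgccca

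**Figure D1:**
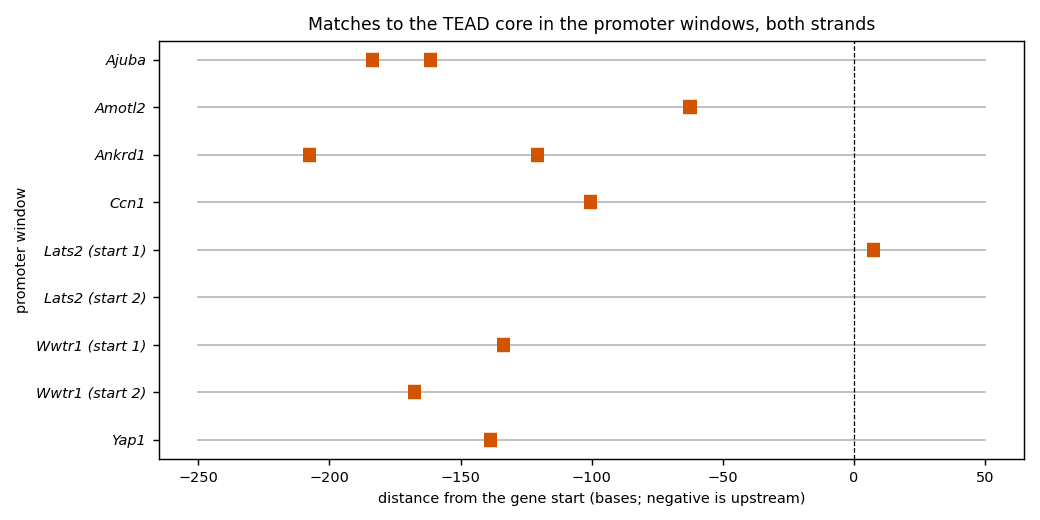
Positions of the TEAD core (orange blocks) in the promoter windows of the 7 genes listed in RefSeq, with distance from the gene start in bases on the x axis and each promoter window on a line of its own. In 8 of the 9 windows a core is present, upstream of the start except in Lats2, and Ajuba and Ankrd1 have 2 each.

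The core of Ccn1 lay 103 bases before its start and that of Amotl2 65 bases before. Ankrd1 had cores 210 and 123 bases before its start, both in the forward orientation, and Ajuba had cores 186 and 164 bases before, both in the reverse orientation. The core of Yap1 lay 141 bases before the start, and the 2 overlapping Wwtr1 windows share a single core, 136 and 170 bases before their starts.

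The targeted transcripts were lower as labelled: Mettl14 stood at 30.9% of scramble at time course 0 h and at 39% in the repeat set. Mettl3 shares its single listed probe set with Tox4, and that set stood at 26.9% and 23.6% in the Mettl3 knockdowns. Embryonic stem cell markers differed in level. Nanog was bright, at 11.89 to 12.86 on the log2 scale over the arrays. Pou5f1, Esrrb and Klf4 averaged 8.42, 8.00 and 8.72, where the group medians over all genes tested were 8.10 to 8.27. Dppa5a was dim. In each knockdown at 0 h, 7 to 9 of the 9 tested markers fell. Trophectoderm markers moved with the knockdowns, with 6, 5, 7 and 7 of 9 higher and 1 lower in each, in the order Mettl14 and Mettl3 in the time course and then in the repeat set: their summed linear signal over 10 genes was 9082 to 9159 after Mettl14 knockdown and 9797 to 10179 after Mettl3 knockdown, against 2957 to 2992 in scramble, and Elf5 was dim. Among the repeat arrays that sum was 11914 to 12064 after Mettl14 knockdown against 4999 to 5069 in its scramble, and 8379 to 8437 after Mettl3 knockdown against 4425 to 4445. The keratin genes Krt8 and Krt18, the brightest of the 10 at means of 11.80 and 10.80, weigh most in it. After Mettl14 knockdown at time course 0 h they rose by 2.34 and 2.24, while Tfap2c changed by -1.33. The median log2 changes of the 9 tested trophectoderm markers were 0.40, 0.50, 1.19 and 0.82 in the order above. The feeder layer also expresses matrix genes. The summed signal of 19 fibroblast markers at 0 h was 3071 to 3092 after Mettl14 knockdown and 2889 to 2997 after Mettl3 knockdown, against 1975 to 1989 in scramble. For the repeat set it was 3758 to 3833 after Mettl14 knockdown against 3316 to 3422, and 3578 to 3601 after Mettl3 knockdown against 2808 to 2873. Mmp2, the brightest of the 19 at a mean of 10.08 where Col1a1 came next at 7.91, weighs most in this sum. It rose by 1.48 after Mettl14 knockdown at time course 0 h. The median log2 changes of the 14 fibroblast markers tested were 0.22, 0.26, 0.04 and 0.24, in the order of the 4 comparisons. Postn, Lum, Dcn, Fap and Lox lay below the dim filter. Of the 14 fibroblast markers tested, 4, 4, 3 and 4 rose in that order, and Pdgfrb fell after Mettl3 knockdown in the time course. That is 28.6%, 35.7%, 21.4% and 28.6% called in either direction, below the 39.5%, 37.8%, 36.2% and 35.3% of all genes tested that were called in these 4 comparisons. The part of fibroblast or trophectoderm cells in the results below was not tested. In these bulk samples, more cells of a type and more RNA per cell cannot be told apart.

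**Figure D2:**
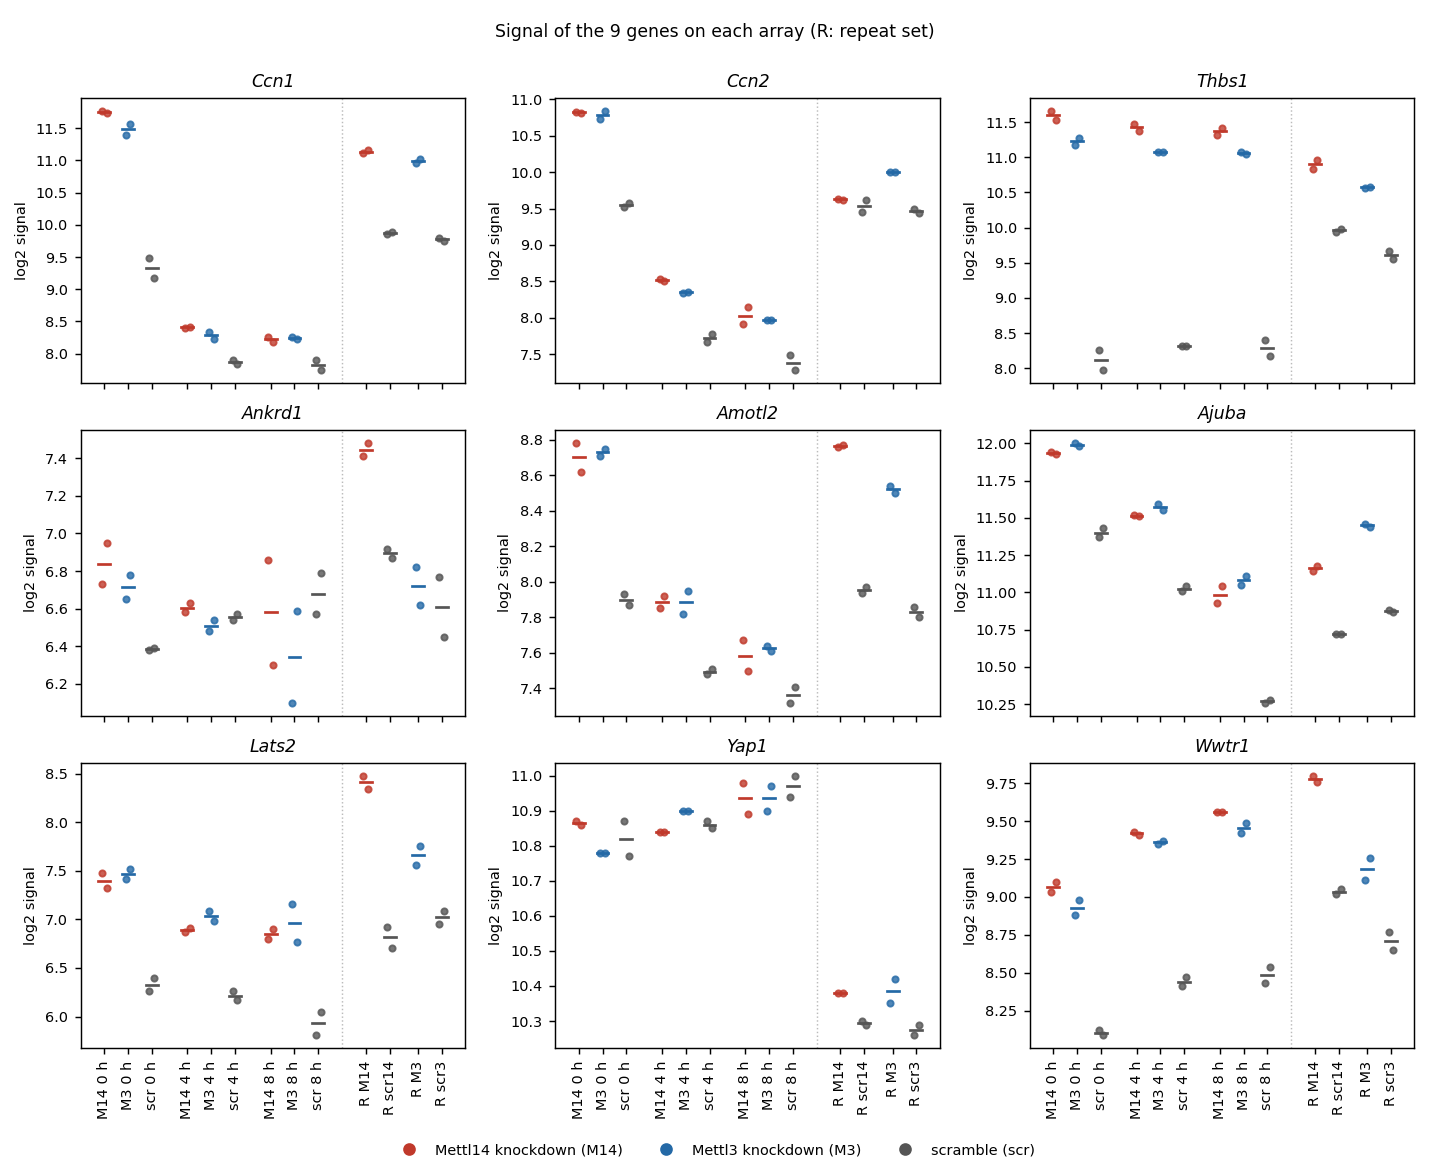
Log2 signal of the 9 genes on each of the 26 arrays, with a point per array and a bar at the mean of each group of 2. The time course lies left of the dotted line and the repeat set right of it, in red for Mettl14 knockdown (M14), blue for Mettl3 knockdown (M3) and grey for scramble (scr). The knockdown arrays of Thbs1 lie at 11.04 to 11.66 in the time course, against 7.97 to 8.40 in scramble.

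Of the 9 genes, Thbs1, Ccn1 and Ccn2 had the widest differences between knockdown and scramble at time course 0 h, and all 3 had smaller ones in the repeat set. Values are log2 signals, on which a difference of 1 is a 2-fold change, and ± gives the standard error of a difference between groups of 2 arrays. Thbs1 read 11.66 and 11.53 after Mettl14 knockdown and 11.17 and 11.28 after Mettl3 knockdown at time course 0 h, against 8.26 and 7.97 in scramble. The groups were far apart, by 3.48 ± 0.09 after Mettl14 knockdown (11.2-fold) and 3.11 ± 0.09 after Mettl3 knockdown (8.65-fold). In the repeat set Thbs1 read 10.84 and 10.96 after Mettl14 knockdown against 9.94 and 9.98 in its scramble, and 10.57 and 10.58 after Mettl3 knockdown against 9.66 and 9.56. There too no knockdown array overlapped its scramble arrays, and the differences were 0.94 ± 0.06 (1.92-fold) and 0.96 ± 0.06 (1.95-fold). Without the 2 scramble arrays described as 4 h they were 0.96 and 0.91.

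Ccn1 read 11.77 and 11.74 after Mettl14 knockdown and 11.40 and 11.57 after Mettl3 knockdown at time course 0 h, against 9.48 and 9.18 in scramble. All knockdown arrays lay above both scramble arrays, with differences of 2.43 ± 0.09 and 2.16 ± 0.09. Across the repeat set Ccn1 read 11.11 and 11.16 after Mettl14 knockdown against 9.86 and 9.89, and 10.96 and 11.03 after Mettl3 knockdown against 9.80 and 9.75. The groups did not overlap, and the differences were 1.26 ± 0.05 and 1.22 ± 0.05, or 1.27 and 1.19 without the arrays described as 4 h.

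Ccn2, a relative of Ccn1, had 10.83 and 10.81 after Mettl14 knockdown and 10.73 and 10.84 after Mettl3 knockdown at time course 0 h, against 9.52 and 9.57 in scramble. It rose by 1.27 ± 0.08 (adjusted p = 1.74e-07) and 1.24 ± 0.08 (adjusted p = 2.53e-07). On the repeat arrays Ccn2 read 9.63 and 9.62 after Mettl14 knockdown against 9.45 and 9.62, groups that met at their edge, and the difference of 0.09 ± 0.06 did not pass (adjusted p = 0.293). After Mettl3 knockdown both arrays read 10.00, against 9.49 and 9.44, a rise of 0.54 ± 0.06 (adjusted p = 0.000848). Without the arrays described as 4 h the differences were 0.17 (adjusted p = 0.0935) and 0.51 (adjusted p = 0.00738). A second, dimmer Ccn2 probe set, 17239773, had group means of 6.95 after Mettl14 knockdown and 6.89 after Mettl3 knockdown against 6.84 in scramble at time course 0 h, with 6.66 and 7.24 as its 2 arrays after Mettl14 knockdown, so it did not separate the groups.

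Ankrd1, a nuclear ankyrin repeat protein induced by YAP in muscle and other cells, was dim and variable. It read 6.73 and 6.95 after Mettl14 knockdown and 6.65 and 6.78 after Mettl3 knockdown at time course 0 h, against 6.38 and 6.39 in scramble. The knockdown arrays lay above scramble, yet the differences of 0.46 ± 0.17 (adjusted p = 0.0524) and 0.33 ± 0.17 (adjusted p = 0.155) did not pass. The first passed under 5 other settings, at adjusted p = 0.0118 to 0.0426, and the second under 1, the fit to the 6 arrays at 0 h alone (adjusted p = 0.0377). In the repeat set it read 7.41 and 7.48 after Mettl14 knockdown against 6.92 and 6.87, a rise of 0.56 ± 0.11 (adjusted p = 0.00821; 0.53 and 0.0249 without the arrays described as 4 h). After Mettl3 knockdown it read 6.82 and 6.62 against 6.77 and 6.45, overlapping groups with a difference of 0.11 ± 0.11 (adjusted p = 0.467; -0.04 and 0.787 without those arrays).

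The 3 regulators of YAP and of the LATS kinases, Amotl2, Ajuba and Lats2, rose in both knockdowns and in both sets. Amotl2, the angiomotin relative that binds YAP, read 8.78 and 8.62 after Mettl14 knockdown and 8.71 and 8.75 after Mettl3 knockdown at time course 0 h, against 7.93 and 7.87 in scramble. For the repeat set it read 8.76 and 8.77 against 7.94 and 7.97, and 8.54 and 8.50 against 7.86 and 7.80, for Mettl14 and Mettl3 knockdown against their scrambles. The 4 rises, in that order, were 0.80 ± 0.07, 0.83 ± 0.07, 0.81 ± 0.04 and 0.69 ± 0.04 (adjusted p = 3.79e-06, 2.93e-06, 4.88e-05 and 9.16e-05), with no overlap in any.

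Ajuba, the LIM protein that restrains LATS kinases, read 11.94 and 11.93 after Mettl14 knockdown and 12.00 and 11.98 after Mettl3 knockdown, against 11.37 and 11.43 in scramble of the time course. Within the repeat set it read 11.14 and 11.18 against 10.72 on both scramble arrays, and 11.46 and 11.44 against 10.88 and 10.87. Its replicates lay at most 0.06 apart at 0 h, and its rises were 0.54 ± 0.05, 0.59 ± 0.05, 0.45 ± 0.04 and 0.57 ± 0.04 (adjusted p = 4.06e-06, 1.94e-06, 0.000273 and 0.000125).

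Lats2, the kinase that inactivates YAP and TAZ, read 7.48 and 7.32 after Mettl14 knockdown and 7.42 and 7.52 after Mettl3 knockdown in the time course, against 6.26 and 6.40 in scramble. In the repeat set it read 8.48 and 8.34 after Mettl14 knockdown against 6.92 and 6.71, the widest gap of this gene, and 7.56 and 7.76 after Mettl3 knockdown against 6.95 and 7.09. Lats2 rose by 1.07 ± 0.12 and 1.14 ± 0.12 in the time course (adjusted p = 1.63e-05 and 1.02e-05) and by 1.60 ± 0.10 and 0.64 ± 0.10 in the repeat set (adjusted p = 8.64e-05 and 0.00365). Without the arrays described as 4 h the repeat values were 1.49 and 0.71 (adjusted p = 0.00314 and 0.017). For Amotl2 and Ajuba they were 0.83 and 0.66, and 0.44 and 0.57, all still passing at adjusted p = 0.0029 to 0.00995.

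Of the 2 co-activators, Wwtr1 rose in each of these comparisons and Yap1 passed in none. Wwtr1, which encodes TAZ, read 9.03 and 9.10 after Mettl14 knockdown and 8.88 and 8.98 after Mettl3 knockdown at time course 0 h, against 8.12 and 8.09 in scramble. On the repeat arrays it read 9.80 and 9.76 against 9.02 and 9.05, and 9.11 and 9.26 against 8.77 and 8.65. No groups overlapped, and Wwtr1 rose by 0.96 ± 0.06, 0.82 ± 0.06, 0.74 ± 0.07 and 0.47 ± 0.07 (adjusted p = 7.33e-08, 2.99e-07, 0.000275 and 0.00196). Without the arrays described as 4 h the repeat rises were 0.76 and 0.41 (adjusted p = 0.00672 and 0.0309).

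Yap1 read 10.87 and 10.86 after Mettl14 knockdown and 10.78 on both arrays after Mettl3 knockdown at time course 0 h, against 10.87 and 10.77 in scramble. Among the repeat arrays it read 10.38 on both arrays against 10.30 and 10.29, and 10.35 and 10.42 against 10.26 and 10.29. The first groups overlapped and the repeat groups lay close, and no difference passed: 0.05 (95% interval -0.06 to 0.16), -0.04 (-0.15 to 0.07), 0.09 (-0.01 to 0.19) and 0.11 (0.00 to 0.21), at adjusted p = 0.504, 0.588, 0.148 and 0.102. These intervals allow changes from -0.15 to 0.21 on the log2 scale. A second Yap1 probe set, 17514610, was dim at a mean of 5.29. Averaging both probe sets gave -0.25 after Mettl3 knockdown at time course 0 h, which passed (adjusted p = 0.00909), and some repeat differences passed under single settings, at 0.18 (adjusted p = 0.0218) with long-lived transcripts set equal and 0.11 (adjusted p = 0.0276) with a trend and robust fit.

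**Figure D3:**
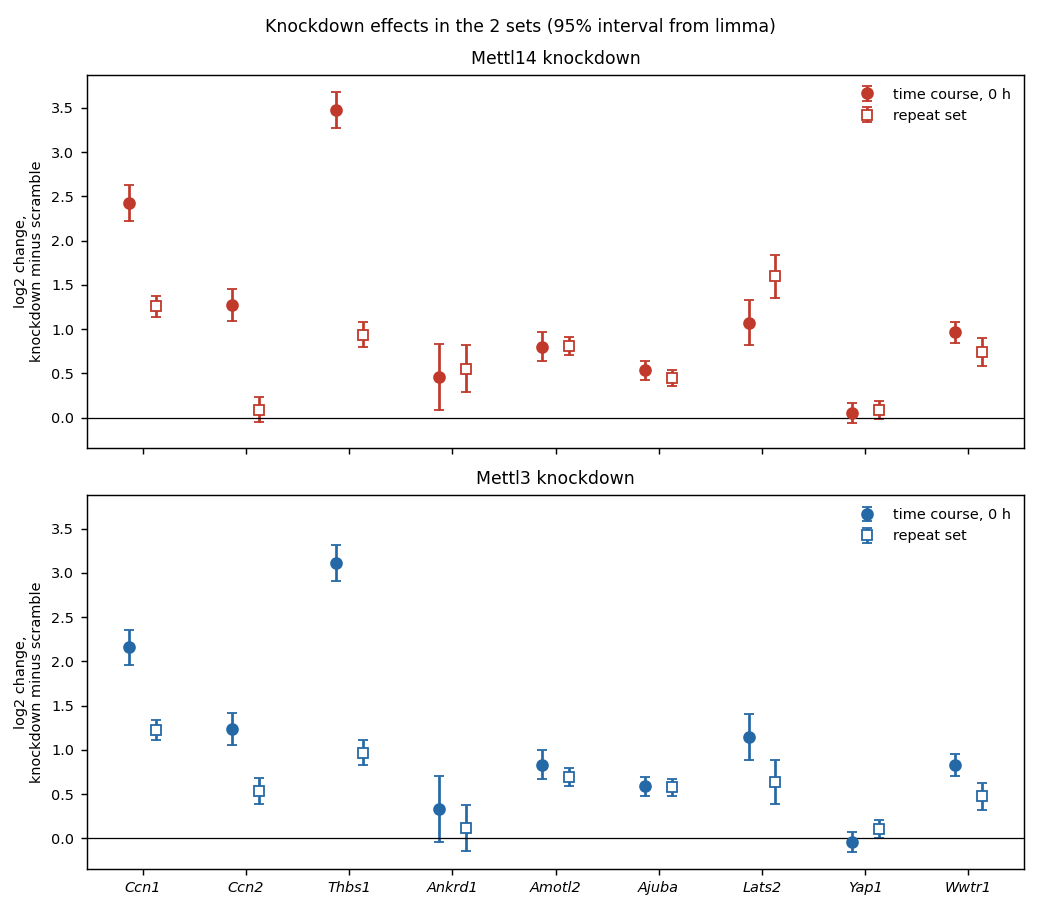
Log2 change of each of the 9 genes, knockdown minus scramble at 0 h, with filled circles for the time course, open squares for the repeat set and bars for the 95% interval from limma. Thbs1 lies at 3.48 and 3.11 in the time course against 0.94 and 0.96 in the repeat set, while Amotl2, Ajuba and Yap1 nearly coincide.

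By count, 7 of the 9 genes were higher after Mettl14 knockdown at time course 0 h, where 39.5% of all genes tested were called, and 7 of 9 after Mettl3 knockdown, where 37.8% were called. The repeat set gave 7 of 9 higher after Mettl14 knockdown (36.2% of all genes called) and 7 of 9 after Mettl3 knockdown (35.3%). Thbs1, Ccn1, Amotl2, Ajuba, Lats2 and Wwtr1 were in all 4 counts. Nothing is read from these counts, since they include Thbs1 and Ccn1, which were chosen on these contrasts. The Mettl14 and Mettl3 knockdowns of the time course share their scramble arrays, so their values are given side by side and are not independent. The median log2 change of all genes tested lay between -0.004 and 0.004 in these 4 comparisons.

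The size of the knockdown effect was then compared between the sets, as the effect in the time course at 0 h minus that in the repeat set. For Thbs1 this difference was 2.54 after Mettl14 knockdown and 2.15 after Mettl3 knockdown, and for Ccn1 it was 1.17 and 0.94. Ccn2 had larger effects in the time course, by 1.18 ± 0.11 (adjusted p = 1.42e-06) and 0.70 ± 0.11 (adjusted p = 0.000475). Amotl2, Ajuba, Ankrd1 and Yap1 did not pass, with differences between -0.14 and 0.22. The 95% intervals were -0.20 to 0.18 and -0.06 to 0.33 for Amotl2, and -0.04 to 0.22 and -0.11 to 0.14 for Ajuba. Lats2 was lower by this measure after Mettl14 knockdown, at -0.52 ± 0.17 (adjusted p = 0.0447), and stood at 0.51 ± 0.17 after Mettl3 knockdown without passing (adjusted p = 0.0741). The Lats2 call was lost in 10 other settings, at adjusted p = 0.0555 to 0.187, among them the fit without the arrays described as 4 h (-0.42, adjusted p = 0.187). It was also lost without either time course scramble replicate, replicate 2 of the time course Mettl14 knockdown, replicate 2 of the repeat scramble or either repeat Mettl14 knockdown replicate, at -0.42 to -0.59. Wwtr1 was higher in the time course after Mettl3 knockdown, by 0.35 ± 0.08 (adjusted p = 0.0121; 0.41 and 0.0184 without the arrays described as 4 h), and not after Mettl14 knockdown (0.22 ± 0.08, adjusted p = 0.0828). Leaving out Mettl3 knockdown replicate 2 of the time course, replicate 1 of its repeat scramble or replicate 1 of the repeat Mettl3 knockdown ended the Wwtr1 call, at 0.30, 0.30 and 0.28. In all, 4 of 9 genes were called for each knockdown, where 16.5% of all genes were called for Mettl14 and 9.81% for Mettl3. Nothing is read from these counts either, since Thbs1 and Ccn1, chosen on this difference, are among the 4. Set, and anything that was done differently between the sets, cannot be told apart in this comparison.

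The scramble levels of the sets also differed. Thbs1 averaged 8.11 in the time course scramble at 0 h against 9.96 and 9.61 in the repeat scramble groups, and its knockdown arrays at 0 h ran from 11.17 to 11.66 in the time course against 10.57 to 10.96 in the repeat set. Its smaller repeat effect thus went with a higher scramble level and a lower knockdown level. Wwtr1 averaged 8.10 in time course scramble against 9.04 and 8.71 in repeat scramble, and Lats2 6.33 against 6.81 and 7.02. Ajuba had the reverse order, with 11.40 against 10.72 and 10.88, as did Yap1, with 10.82 against 10.29 and 10.28. Ccn2 and Amotl2 differed by at most 0.08 between the scramble groups of the sets. The fibroblast marker sum was 1975 to 1989 in time course scramble against 3316 to 3422 and 2808 to 2873 in repeat scramble, and the trophectoderm sum 2957 to 2992 against 4999 to 5069 and 4425 to 4445. Each sum weighs its brightest markers most, Mmp2 in the fibroblast list and Krt8 and Krt18 in the trophectoderm list. Whether all arrays were normalised together is not stated, so levels across sets are given as values only.

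Over the time course, Ccn1 and Ccn2 dropped steeply by 4 h in every treatment, Amotl2, Ajuba and Lats2 fell by less, and Wwtr1 rose. As deposited, the group means of Thbs1, Ankrd1 and Yap1 lay within 0.4 of their start, although single Ankrd1 arrays lay further off. The signals are relative. RMA equalises the distribution of probe intensities among arrays normalised together, before they are summarised per probe set. The median change of all genes tested was 0.099 to 0.148 over 4 h or 8 h. Setting the median of 31 long-lived transcripts equal on every array moved these medians to between -0.151 and -0.003, and moved the share of called genes that were higher to between 19.7% and 43.8%, against 64.5% to 71.5% as deposited. The changes below stand beside those shifts.

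Ccn1 after Mettl14 knockdown read 11.77 and 11.74 at 0 h, 8.39 and 8.42 at 4 h, and 8.26 and 8.18 at 8 h. After Mettl3 knockdown it read 11.40 and 11.57, then 8.34 and 8.23, then 8.26 and 8.22. In scramble it read 9.48 and 9.18, then 7.90 and 7.83, then 7.90 and 7.74. Nearly all of the drop lay in the first 4 h, and at 8 h all 6 arrays lay between 7.74 and 8.26.

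The change of Ccn1 at 4 h and 8 h was -3.35 and -3.53 after Mettl14 knockdown, -3.20 and -3.25 after Mettl3 knockdown, and -1.47 and -1.51 in scramble. At 4 h its signal was thus 10.2-fold lower than at 0 h after Mettl14 knockdown, 9.18-fold lower after Mettl3 knockdown and 2.76-fold lower in scramble. Ccn1 was chosen on its change over time, so these values are given as a description.

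Ccn2 after Mettl14 knockdown read 10.83 and 10.81 at 0 h, 8.53 and 8.51 at 4 h, and 7.91 and 8.15 at 8 h. After Mettl3 knockdown it read 10.73 and 10.84, then 8.34 and 8.36, then 7.97 on both arrays. In scramble it read 9.52 and 9.57, then 7.67 and 7.78, then 7.49 and 7.28. Ccn2 stood lower at 8 h than at 4 h on the mean of each treatment, though the step was not tested. Its falls at 8 h were -2.79 ± 0.08, -2.81 ± 0.08 and -2.16 ± 0.08 in Mettl14 knockdown, Mettl3 knockdown and scramble (adjusted p = 4.71e-10, 6.38e-10 and 1.91e-09).

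Thbs1 after Mettl14 knockdown read 11.66 and 11.53 at 0 h, 11.47 and 11.38 at 4 h, and 11.32 and 11.42 at 8 h. After Mettl3 knockdown it read 11.17 and 11.28, then 11.07 and 11.08, then 11.07 and 11.04. In scramble it read 8.26 and 7.97, then 8.32 and 8.31, then 8.40 and 8.18. The times lay close to each other within a treatment, while the means of knockdown and scramble stayed 2.76 to 3.48 apart.

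The change of Thbs1 at 4 h and 8 h was -0.17 and -0.22 after Mettl14 knockdown, -0.15 and -0.17 after Mettl3 knockdown, and 0.20 and 0.17 in scramble. With long-lived transcripts set equal, the 8 h values were -0.50 after Mettl14 knockdown and -0.37 after Mettl3 knockdown. Set against Ccn1, the change of Thbs1 was less negative by 3.18 at 4 h and 3.31 at 8 h after Mettl14 knockdown, by 3.05 and 3.08 after Mettl3 knockdown, and by 1.67 and 1.69 in scramble. These contrasts are those the 2 genes were selected on.

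Among the regulators, Amotl2 had at 8 h fallen by -1.12 ± 0.07 after Mettl14 knockdown, -1.10 ± 0.07 after Mettl3 knockdown and -0.54 ± 0.07 in scramble (adjusted p = 1.82e-07, 2.28e-07 and 6.15e-05). At 4 h it had fallen by -0.81, -0.85 and -0.41 (adjusted p = 7.82e-06, 5.7e-06 and 0.00099). Ajuba fell by -0.42, -0.42 and -0.38 at 4 h (adjusted p = 5.27e-05, 6.15e-05 and 0.000126) and by -0.95 ± 0.05, -0.91 ± 0.05 and -1.13 ± 0.05 at 8 h (adjusted p = 2.92e-08, 4.32e-08 and 5.47e-09). Its 8 h fall was thus over 2 times its 4 h fall in each treatment.

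Lats2 fell at 4 h in both knockdowns, by -0.51 ± 0.12 after Mettl14 knockdown (adjusted p = 0.00384) and -0.44 ± 0.12 after Mettl3 knockdown (adjusted p = 0.00995), and stood at -0.11 ± 0.12 in scramble (adjusted p = 0.459). At 8 h it had fallen by -0.55, -0.51 and -0.40 (adjusted p = 0.00165, 0.00279 and 0.0119). Its scramble arrays were dim over the time course, at 5.81 to 6.40. The 4 h fall after Mettl3 knockdown did not pass without replicate 2 of Mettl3 knockdown at 0 h or at 4 h (adjusted p = 0.0646 and 0.066), nor did the 8 h fall in scramble without replicate 2 at 0 h or replicate 1 at 8 h (adjusted p = 0.0849 and 0.11).

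Wwtr1 rose at 4 h by 0.35 ± 0.06, 0.43 ± 0.06 and 0.34 ± 0.06 and at 8 h by 0.50 ± 0.06, 0.53 ± 0.06 and 0.38 ± 0.06 in Mettl14 knockdown, Mettl3 knockdown and scramble (adjusted p = 0.000393, 0.000115 and 0.000564 at 4 h, and 1.38e-05, 9.02e-06 and 0.000104 at 8 h). With long-lived transcripts set equal the 4 h rises after Mettl14 knockdown and in scramble did not pass, at 0.15 (adjusted p = 0.0914) and 0.17 (adjusted p = 0.0709). Yap1 changed by 0.07, 0.16 and 0.15 at 8 h, of which those after Mettl3 knockdown and in scramble passed (adjusted p = 0.265, 0.0215 and 0.0237), beside medians over all genes of 0.123, 0.109 and 0.148. With long-lived transcripts set equal these Yap1 values were -0.20, -0.04 and -0.04. The Yap1 call after Mettl3 knockdown was also lost without either replicate at 0 h or replicate 2 at 8 h, and that in scramble without replicate 2 at 0 h or at 8 h (adjusted p = 0.0664 to 0.18). Ankrd1 did not pass at either time as deposited, at -0.24 and -0.26 after Mettl14 knockdown, -0.20 and -0.37 after Mettl3 knockdown, and 0.17 and 0.29 in scramble. It fell and passed after Mettl14 knockdown with long-lived transcripts set equal, by -0.434 at 4 h and -0.535 at 8 h (adjusted p = 0.0405 and 0.00898). Under that setting its 8 h change after Mettl3 knockdown also passed, at -0.569 (adjusted p = 0.00652). The 2 Ankrd1 arrays after Mettl14 knockdown at 8 h were 6.86 and 6.30. Without the first of them its 8 h change was -0.55 (adjusted p = 0.0166), and without replicate 2 of Mettl3 knockdown at 8 h it was -0.62 there (adjusted p = 0.0145).

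**Figure D4:**
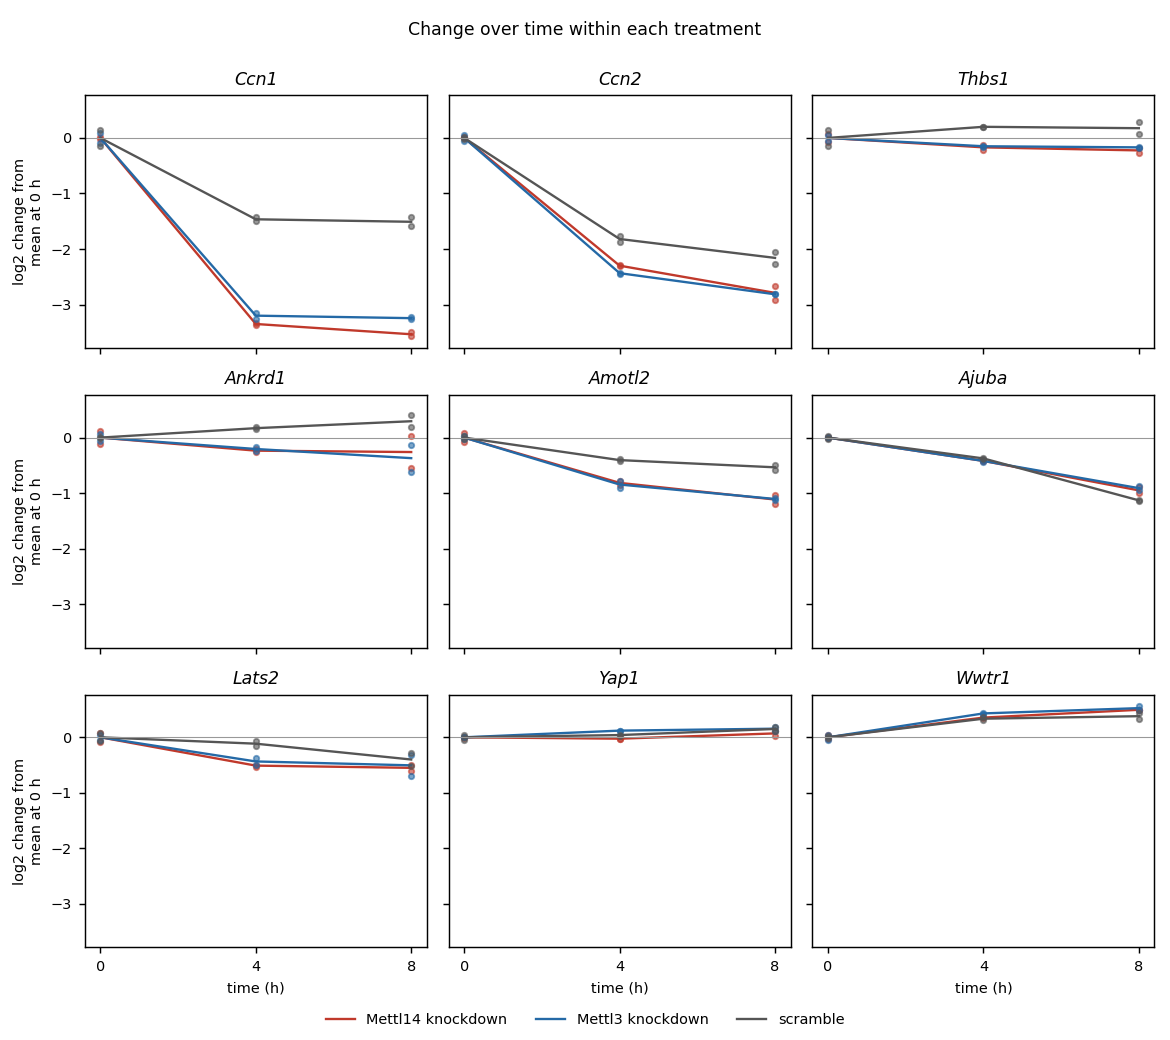
Log2 change from the mean at 0 h for the 9 genes over 0 h, 4 h and 8 h, with a point per array and a line through the means, in red for Mettl14 knockdown, blue for Mettl3 knockdown and grey for scramble. The lines of Ccn1 reach -3.53 and -3.25 at 8 h in the knockdowns against -1.51 in scramble, and those of Thbs1 stay between -0.22 and 0.20.

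In counts, 6 of 9 genes had changed at 4 h after Mettl14 knockdown, 6 after Mettl3 knockdown and 5 in scramble, where 46.2%, 44.6% and 46.3% of all genes tested were called. At 8 h the counts were 6, 7 and 7, where 56.2%, 56.1% and 60.8% of all genes were called. Nothing is read from these counts, which include Ccn1, chosen on its change over time.

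The 8 h change in each knockdown was then set against the 8 h change in scramble. For Ccn1, described without a p-value, the difference was -2.02 after Mettl14 knockdown and -1.74 after Mettl3 knockdown. Ccn2 fell further in the knockdowns than in scramble, by -0.62 ± 0.12 (adjusted p = 0.0111) and -0.65 ± 0.12 (adjusted p = 0.0109), and so did Amotl2, by -0.58 ± 0.10 (adjusted p = 0.00858) and -0.57 ± 0.10 (adjusted p = 0.0124). The Ccn2 values became -0.43 (adjusted p = 0.102) and -0.25 (adjusted p = 0.352) when its 2 probe sets were averaged. The Amotl2 value after Mettl3 knockdown did not pass without replicate 2 of scramble at 0 h or at 8 h (adjusted p = 0.0504 and 0.0528). With Ccn1, these made 3 of 9 genes called in each knockdown, where 4.99% of all genes were called for Mettl14 and 3.47% for Mettl3. Nothing is read from that count, since Ccn1 was chosen on its change over time. Thbs1 stood at -0.40 and -0.35. For Ankrd1, Ajuba, Lats2, Yap1 and Wwtr1 the difference did not pass, and for Wwtr1 its 95% intervals were -0.06 to 0.29 and -0.03 to 0.32. Both differences use the same scramble arrays.

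The gap between knockdown and scramble was also followed at each time. For Ccn1 it was 2.43 at 0 h, 0.54 at 4 h and 0.40 at 8 h after Mettl14 knockdown, and 2.16, 0.43 and 0.42 after Mettl3 knockdown. For Thbs1 it was 3.48, 3.11 and 3.08, and 3.11, 2.76 and 2.77. Ccn2 remained higher in the knockdowns, by 0.80 at 4 h and 0.65 at 8 h after Mettl14 knockdown (adjusted p = 1e-05 and 4.53e-05) and by 0.63 and 0.59 after Mettl3 knockdown (adjusted p = 7.82e-05 and 0.00011). Amotl2 stood higher by 0.39 and 0.22 after Mettl14 knockdown (adjusted p = 0.00103 and 0.0307) and by 0.39 and 0.27 after Mettl3 knockdown (adjusted p = 0.00117 and 0.012). The 8 h calls of Amotl2 were lost under 7 other settings after Mettl14 knockdown (adjusted p = 0.0531 to 0.238), replicate 1 of either group left out being 2 of them, and under 3 after Mettl3 knockdown (0.0628 to 0.123), replicate 1 of scramble or of the knockdown left out being 2 of them.

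The gap of Wwtr1 was 0.96, 0.98 and 1.08 at 0 h, 4 h and 8 h after Mettl14 knockdown and 0.82, 0.92 and 0.97 after Mettl3 knockdown. That of Lats2 was smaller at 4 h than at 0 h, at 1.07, 0.67 and 0.92, and 1.14, 0.82 and 1.03. That of Ajuba was 0.54, 0.49 and 0.72, and 0.59, 0.54 and 0.81, and these steps between times were not tested. All 3 were still higher in the knockdowns at 8 h. Ajuba was higher by 0.71 ± 0.05 and 0.81 ± 0.05 (adjusted p = 2.7e-07 and 1.03e-07), Lats2 by 0.92 ± 0.12 and 1.03 ± 0.12 (adjusted p = 4.78e-05 and 2.02e-05) and Wwtr1 by 1.08 ± 0.06 and 0.97 ± 0.06 (adjusted p = 2.36e-08 and 6.1e-08), after Mettl14 and after Mettl3 knockdown. Yap1 did not pass at 4 h or 8 h, with differences from -0.03 to 0.04, and nor did Ankrd1, at 0.05 and -0.10 after Mettl14 knockdown and -0.04 and -0.33 after Mettl3 knockdown. The last Ankrd1 value was -0.58 without replicate 2 of that group (adjusted p = 0.027). At 4 h 7 of 9 genes were higher after Mettl14 knockdown, where 39.5% of all genes were called, and 7 of 9 after Mettl3 knockdown, where 37.8% were called. At 8 h the counts were again 7 of 9 in both, where 43.6% and 42.8% were called. As at 0 h, nothing is read from these counts, which include Thbs1 and Ccn1.

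**Figure D5:**
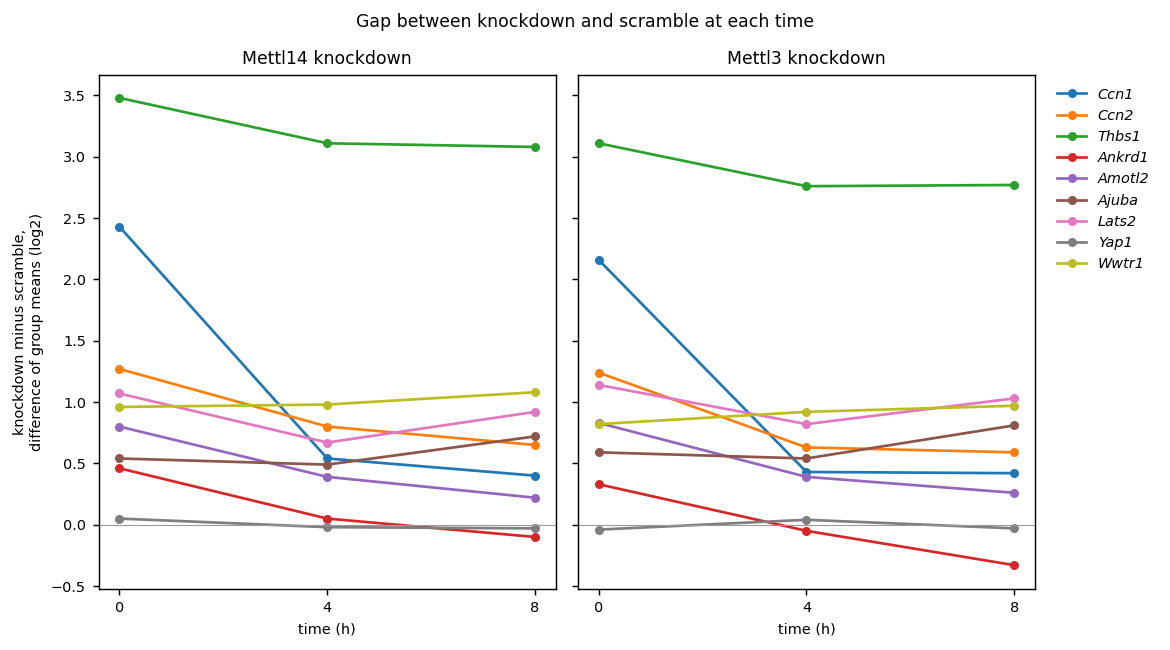
Difference of group means in log2 signal, knockdown minus scramble, at 0 h, 4 h and 8 h for the 9 genes, with Mettl14 knockdown on the left and Mettl3 knockdown on the right. The line of Ccn1 drops to 0.54 and 0.43 at 4 h, while that of Thbs1 stays between 2.76 and 3.48.

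Other genes of the pathway were described from lists of Hippo components, YAP and TAZ targets, and matricellular relatives with their receptors. Of 24 other Hippo genes tested, 15 rose and 3 fell after Mettl14 knockdown at time course 0 h, with a median log2 change of 0.27, and 14 rose and 3 fell after Mettl3 knockdown (median 0.34). In the repeat set 15 rose and 2 fell (median 0.27), and 11 rose and 2 fell (median 0.19). In the order of these 4 comparisons, 75%, 70.8%, 70.8% and 54.2% of the list were called in either direction, where 39.5%, 37.8%, 36.2% and 35.3% of all genes tested were called and the medians over all genes were near 0. Ptpn14, a phosphatase that binds and restrains YAP, rose by 1.72 ± 0.05 and 1.73 ± 0.05 in the time course and by 0.58 ± 0.05 after Mettl3 knockdown in the repeat set. The angiomotin genes Amot and Amotl1, relatives of Amotl2, were also higher, with Amotl1 at 0.99 ± 0.06 and 1.11 ± 0.06 in the time course and Amot at 1.82 ± 0.11 after Mettl14 knockdown in the repeat set. Tead3, a DNA-binding partner of YAP, rose by 1.16 ± 0.08, 0.96 ± 0.08, 0.67 ± 0.05 and 0.60 ± 0.05 in the 4 comparisons. Vgll3, a cofactor of TEAD factors, rose by 1.41 ± 0.09 after Mettl14 knockdown in the time course and by 1.87 ± 0.07 and 1.31 ± 0.07 in the repeat set. As with Ccn2, the effect on Ptpn14 was larger in the time course than in the repeat set, by 1.10 ± 0.07 and 1.15 ± 0.07 (adjusted p = 2.92e-08 and 2.79e-08). The list as a whole was split for this difference between sets. Of the 24 genes, 5 were called higher and 4 lower for Mettl14 (median -0.04), and 4 higher and 2 lower for Mettl3 (median 0.06). The shares called were 37.5% and 25%, where 16.5% and 9.81% of all genes were called.

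Of 20 other YAP and TAZ targets, 14 rose and 2 fell after Mettl14 knockdown and 14 rose and 1 fell after Mettl3 knockdown at time course 0 h (medians 0.66 and 0.52). Within the repeat set 17 rose and 1 fell in each knockdown (medians 0.67 and 0.43). The shares called were 80%, 75%, 90% and 90%, beside the same shares of all genes (39.5%, 37.8%, 36.2% and 35.3%). Igfbp3, which binds insulin-like growth factors, rose by 1.95 ± 0.08 and 1.85 ± 0.08 in the time course and by 0.67 ± 0.04 after Mettl3 knockdown in the repeat set. Edn1, the endothelin 1 gene, rose by 2.39 ± 0.15, 1.66 ± 0.15, 1.20 ± 0.06 and 0.89 ± 0.06. Tgfb2, a TGF-beta ligand, rose by 1.45 ± 0.11 after Mettl14 knockdown in the time course and by 1.90 ± 0.06 and 1.27 ± 0.06 in the repeat set. Edn1 also fell further over 8 h after Mettl14 knockdown than in scramble, by -0.96 ± 0.21 (adjusted p = 0.0225), and stood at -0.63 ± 0.21 after Mettl3 knockdown (adjusted p = 0.129). For this 8 h difference, 1 of the 20 targets was called higher and 1 lower for Mettl14 (median 0.07). For Mettl3, 1 was called higher and 0 lower (median 0.11). The shares called were 10% and 5%, where 4.99% and 3.47% of all genes were called.

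Of 18 matricellular relatives and receptors tested, 11 rose and 1 fell after Mettl14 knockdown and 10 rose and 1 fell after Mettl3 knockdown in the time course, with 11 and 1, and 9 and 1, in the repeat set. The medians were 0.22, 0.32, 0.26 and 0.20, and 66.7%, 61.1%, 66.7% and 55.6% were called, beside 39.5%, 37.8%, 36.2% and 35.3% of all genes. Integrin genes whose products bind the CCN proteins were among them, with Itgav at 1.05 ± 0.05 and 1.12 ± 0.05 in the time course and at 0.75 ± 0.06 after Mettl14 knockdown in the repeat set. Cd47, a receptor of thrombospondin 1, rose by 0.97 ± 0.08 and 0.69 ± 0.08 in the repeat set. Thbs4, a relative of Thbs1, rose by 0.95 ± 0.10 and 1.01 ± 0.10 in the time course. Sparc, a collagen-binding matrix glycoprotein, rose by 0.88 ± 0.04 and 0.64 ± 0.04 in the repeat set. Over 8 h, 12, 9 and 11 of the 18 rose after Mettl14 knockdown, after Mettl3 knockdown and in scramble (medians 0.29, 0.25 and 0.29). The shares called, 66.7%, 50% and 61.1%, lay near the 56.2%, 56.1% and 60.8% of all genes, whose medians were 0.123, 0.109 and 0.148.

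Across the 13 group means, the genes most like Thbs1 were Igfbp3, Cyp2j13 and Ptgs2, at Pearson r = 0.995, 0.984 and 0.984. Those most like Ccn1 were Rnd3 (0.98), Rgmb (0.97) and Nrip1 (0.965). For Ccn2 they were Dusp6 (0.993), Dusp5 (0.99) and Rgmb (0.983), the first 2 being phosphatases that act on MAP kinases. These values describe group means that share treatments, times and sets. They were ranked among all genes tested other than the 9, leaving out unnamed and predicted genes.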

How the data were processed

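RNA from 26 samples of mouse J1 cells was measured on arrays in 13 groups of 2 by the labels. The deposited log2 signal per probe set was made by the authors with RMA and the package oligo (no version given), per the submitters' processing notes. The scanner files were not used here. Of 41345 probe sets, 23521 carried 1 symbol in the probe table, 1814 carried several and 16010 were not listed. For genes with several probe sets the brightest by mean stood for the gene, which gave 22180 genes. The 7393 dimmest, a fraction of 0.333, were left out. Comparisons used limma 3.58.1 under R 4.3.3 (lmFit, eBayes, two-sided, Benjamini-Hochberg over 14787 genes, threshold 0.05). The 18 time course arrays shared a spread (9 residual degrees of freedom), as did the 8 repeat arrays (4) and, for the difference between sets, all 26 (13). The script was tested on simulated data. The labels number biological replicates without naming separate cultures, so p-values cover the spread among these arrays, and 2 arrays per group limit the precision.

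The 9 genes and the gene lists were chosen with earlier results of these data known. The genes named are the 9 in every comparison, up to 4 members of each other list by smallest adjusted p per comparison, and the 3 genes with the highest correlation to Thbs1, Ccn1 and Ccn2. Lists are described by counts and medians. Alternatives covered the dim filter, the mean of probe sets, a trend and robust fit, array weights, a replicate block, quantile normalization within a set, an equal median of long-lived transcripts, other sample sets and leaving out each array. Promoter windows came from RefSeq, build GRCm38.p6, matched by symbol, and motifs were searched as letters on both strands in Python 3.11.15. Plots were drawn with matplotlib 3.10.9.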

Additional observations from a re-analysis of the deposited data

Results flagged for a closer look

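The following results were marked because the effect itself differed between groups by an interaction term. Over 8 h, Ccn1 changed by -2.022 more after Mettl14 knockdown and by -1.736 more after Mettl3 knockdown than in scramble. These Ccn1 values are a description only, because the gene was chosen on its change over time. For Ccn2 the differences were -0.625 and -0.652, and for Amotl2 they were -0.583 and -0.567.

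The knockdown effect at 0 h differed between the time course and the repeat set, given as time course minus repeat. After Mettl14 knockdown the difference was 1.17 for Ccn1, 1.182 for Ccn2, 2.541 for Thbs1 and -0.522 for Lats2. After Mettl3 knockdown it was 0.937 for Ccn1, 0.703 for Ccn2, 2.149 for Thbs1 and 0.353 for Wwtr1. The values of Thbs1 and Ccn1 are a description, because both genes were chosen on such differences. The groups of 2 arrays are too small for a check of single arrays against their group.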

How the results depend on the processing

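For each of the 18 comparisons, the count of the 9 genes called stayed within 1.5 times its main value under the alternatives run, including each array left out in turn. With the replicate number as a block, the counts were as without it (7 of 9 genes in each knockdown comparison with scramble, for example), apart from the Mettl14 difference between the sets, at 3 against 4, where Lats2 (-0.522) had adjusted p = 0.0671. The deviations of replicates had a median r of 0.031 over 36 pairs of time course groups (-0.436 to 0.335). Over 6 pairs of repeat groups it was -0.004 (-0.047 to 0.042). In the time course 12 of the 36 pairs lay above 0.1, so some groups deviated together. Replicate numbers were not taken as pairing samples, and the block above gives the alternative. Counts with an array left out ran from 6 to 8 for knockdown against scramble, from 5 to 8 for the time changes and from 2 to 4 for the differences of effects. Of 2268 values of single genes under alternatives, 2183 kept their call, 38 gained one, 41 lost one and 6 turned direction, the last all in Yap1. Its 8 h change after Mettl14 knockdown was -0.167 with probe sets averaged and -0.203 with long-lived transcripts set equal, and after Mettl3 knockdown -0.044 with long-lived transcripts set equal. In scramble, with probe sets averaged, it was -0.191 at 4 h and -0.239 at 8 h, and -0.04 at 8 h with long-lived transcripts set equal. The cause was not tested. A further 38 values changed sign without being called in either fit, 20 of them in Yap1. With long-lived transcripts set equal, the share of called genes that were higher moved by over 10 percentage points also in 4 of the 8 knockdown comparisons, to 65.3% against 49.1% for Mettl14 at time course 0 h, 70.9% against 51.2% for Mettl3 at 4 h, 76.1% against 53.5% for the Mettl14 repeat and 61% against 50.7% for the Mettl3 repeat, and to 43.2% against 71.8% for the 8 h change after Mettl14 knockdown minus that in scramble. Signal near background limits Ankrd1, whose replicates differed by up to 0.57. Low signal also limits Lats2 in time course scramble, at 5.81 to 6.40, where the lowest mean of a tested gene was 6.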
